A study of Homo sapiens with 8 samples.

Results

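The genes of glycolysis, the pentose phosphate pathway and sugar transport were followed in BT549, a human breast cancer line of the triple-negative type, grown in forced suspension or attached. The list names 43 genes for glucose carriers, the enzymes from hexokinase to lactate dehydrogenase, the pyruvate dehydrogenase complex and its regulators, pentose phosphate enzymes and TXNIP. A gene counted when a probe set of the deposited table carried its symbol and no other, which held for 40 of the 43, through 41 probe sets, among 18417 genes tested in all. PGAM1, SLC16A1 and SLC16A3 had no such probe set and are not analysed here. Suspended cultures (n = 4) spent 24 h on a coating of poly-HEMA, which keeps cells from adhering, and attached cultures (n = 4) grew on ordinary tissue culture plastic. All 8 cultures had RPMI with 10% serum and insulin. The labels give attached culture both as 24 h and as 48 h, so a longer time since plating cannot be told apart from attachment. The cultures are described as biological replicates of this single line, so p-values speak to the spread between these cultures and not to other lines.

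Glycolysis splits glucose into pyruvate in the cytosol. Carriers of the SLC2A family bring glucose in, hexokinase traps it as glucose 6-phosphate, phosphofructokinase commits it to breakdown, and pyruvate kinase releases ATP in the last step. Pyruvate is then reduced to lactate by lactate dehydrogenase or enters mitochondria through the pyruvate dehydrogenase complex, which PDK kinases switch off and PDP phosphatases switch on. The pentose phosphate pathway branches off at glucose 6-phosphate and yields NADPH and ribose, and transketolase and transaldolase return its carbon to glycolysis. Many tumour lines are known for high glucose uptake and lactate release even with oxygen present.

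Values are log2 signals of 1 array per culture, so a difference of 1 is a doubling of signal, and all differences are suspended minus attached. Array medians lay between 6.02 and 6.07, arrays correlated at r = 0.993 to 0.996 among suspended and 0.995 to 0.996 among attached cultures, and at 0.987 to 0.994 between them. The file has no background measure, so folds are ratios of signal and not of transcript amounts, and how many arrays there are limits the precision. Vimentin (VIM), a mesenchymal marker, averaged 11.66 ± 0.06 in suspended and 11.73 ± 0.01 in attached cultures (SD, n = 4 each). The luminal receptors ESR1 and PGR and the epithelial cadherin CDH1 had means below 5.28, the 25th percentile of gene means, as did the leukocyte marker PTPRC and the endothelial marker PECAM1. ERBB2 (7.53 suspended, 7.48 attached), EPCAM (5.35 and 5.47) and the adipocyte gene ADIPOQ (5.78 and 5.68) lay above that level, and 0 of these 9 markers passed the test (limma adjusted p from 0.157 to 0.994).

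The sugar genes did not move as a block. Of the 40 measured members 11 passed limma's test at adjusted p under 0.05 (27.5%, against 20.6% of all genes), 6 of them higher in suspension (10.4% of all genes were) and 5 lower (10.2% of all genes were). The falls were the glucose carrier SLC2A1, the hexokinase HK1, the isomerase GPI and the platelet-type phosphofructokinase PFKP, together with TXNIP. The rises were ALDOC and PKM in the later steps, PFKFB2, the pyruvate dehydrogenase regulators PDK2 and PDP1, and the transketolase TKT. All called changes were modest, between 1.16-fold and 1.57-fold, and 0 reached 2-fold. The median log2 difference was 0.0029 over the members and 0.024 over all genes. For 13 members (32.5%, against 24.8% of all genes) every suspended culture lay on the same side of every attached one, 10 of them called. The shares over all genes take in more dim genes. Of the 40 members 3 had means below 5.28, against 4604 of all 18417 genes. In a fit of genes above that level 11 of 37 members were called. Of the 13812 genes in that fit 2033 rose and 2019 fell, a similar share. In bulk RNA, fewer expressing cells and less transcript per cell cannot be told apart.

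**Figure D1:**
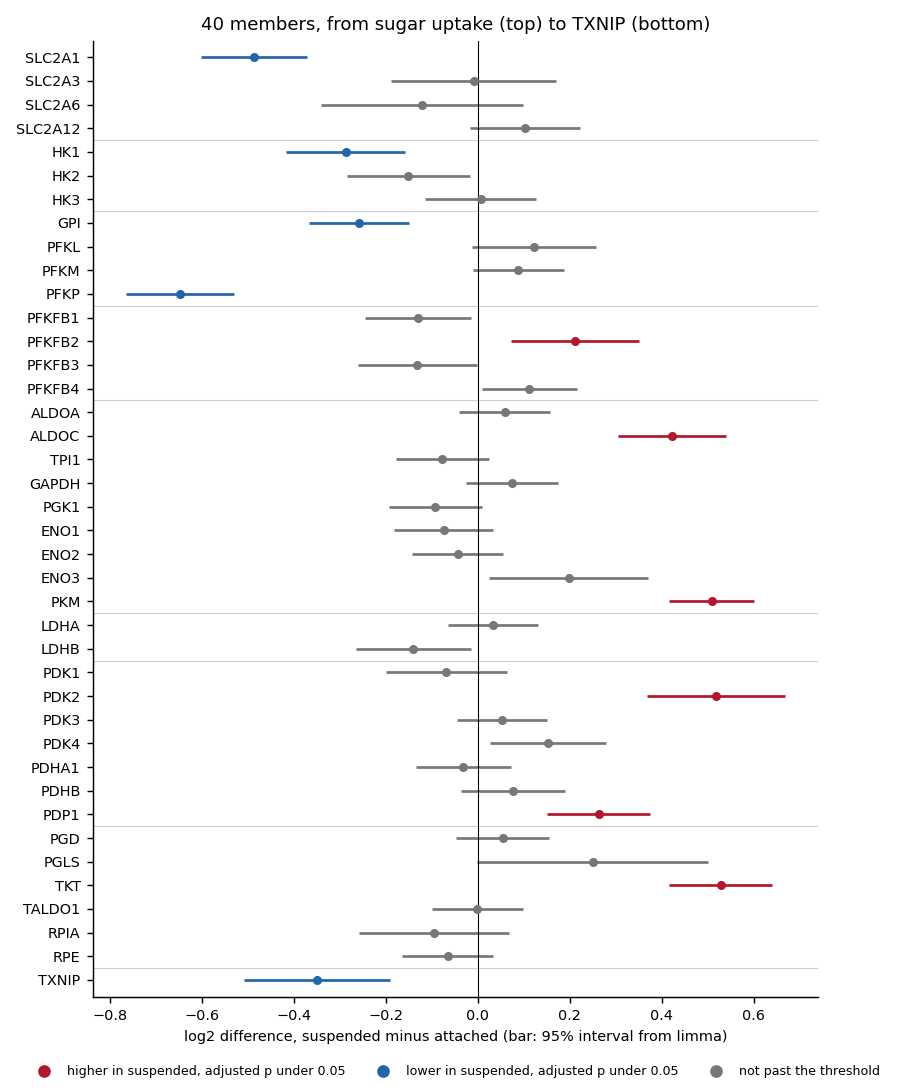
Log2 difference, suspended minus attached, of the 40 measured members with its 95% interval from limma, in the order of their roles from glucose carriers (top) to TXNIP (bottom). The 5 members in blue were lower in suspension, down to −0.65 for PFKP, the 6 in red were higher, up to 0.53 for TKT, and the 29 in grey did not pass the threshold.

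Start-site sequences are shown for 3 called members that textbook accounts tie to glucose or oxygen sensing, TXNIP, SLC2A1 and ALDOC. TXNIP is known as a target of the glucose sensors MondoA and ChREBP, which bind a carbohydrate response element, a pair of E-box-like motifs, and SLC2A1 and ALDOC as targets of the hypoxia-inducible factor. Each line gives the 250 bases before the annotated start, 5′ to 3′ on the gene's strand, from RefSeq on GRCh38.p14. They lie at chr1:145996580-145996829, chr1:42958869-42959118 and chr17:28576896-28577145, all on the minus strand, and TXNIP is shown at the more upstream of its 2 listed starts. Capitals mark, on either strand, CACGNG and CNCGNG with 5 bases between them (carbohydrate response element), CACGTG (E-box), and ACGTG and GCGTG (hypoxia cores), where ACGTG also lies inside every CACGTG.
TXNIP: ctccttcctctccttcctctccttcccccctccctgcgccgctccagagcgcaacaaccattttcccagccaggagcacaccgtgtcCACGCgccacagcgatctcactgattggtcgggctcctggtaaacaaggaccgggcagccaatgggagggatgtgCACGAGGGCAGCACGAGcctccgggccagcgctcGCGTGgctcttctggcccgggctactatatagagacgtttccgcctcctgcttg
SLC2A1: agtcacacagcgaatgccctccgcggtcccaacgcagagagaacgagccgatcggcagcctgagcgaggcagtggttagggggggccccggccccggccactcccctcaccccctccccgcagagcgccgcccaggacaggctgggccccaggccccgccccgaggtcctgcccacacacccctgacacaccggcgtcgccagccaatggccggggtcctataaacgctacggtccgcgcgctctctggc
ALDOC: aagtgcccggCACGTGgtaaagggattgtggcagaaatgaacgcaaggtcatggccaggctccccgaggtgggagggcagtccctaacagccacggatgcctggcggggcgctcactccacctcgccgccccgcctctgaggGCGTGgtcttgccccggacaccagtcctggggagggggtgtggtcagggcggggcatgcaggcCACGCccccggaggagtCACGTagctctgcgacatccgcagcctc
The longest run of capitals in TXNIP, 88 to 72 bases before the start, is the carbohydrate response element pattern, which 0.424% of 35116 annotated starts hold in the same window and 1 of the 64 starts listed for 37 of the measured members. ALDOC holds an E-box 240 to 235 bases before its start and further hypoxia cores nearer to it, whereas none of the 4 patterns is in the SLC2A1 window. Sequence outside these 250 bases was not searched, so an empty window does not show that a gene lacks such a site. The 64 member starts are not independent, since several genes have more than 1. Among them ACGTG occurred at 32.8% (18.5% of all starts), GCGTG at 32.8% (32.2%) and CACGTG at 12.5% (6.34%). The GC-rich motif GGGCGG, not marked above, was also more frequent, at 59.4% (42.6%). At the 21 starts of called members the shares were lower, 23.8% for ACGTG, 23.8% for GCGTG and 9.52% for CACGTG. These are matches of letters and no measure of binding.

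Glucose carriers differed among themselves. SLC2A1 (probe set 7915472) read 8.58, 8.53, 8.55 and 8.64 in the 4 suspended cultures, against 8.98, 9.15, 9.01 and 9.09 in the 4 attached cultures. SLC2A1, the widely expressed carrier GLUT1, was thus lower in every suspended culture than in any attached one, by 1.40-fold (log2 difference −0.49, SE 0.052, limma adjusted p = 6.02e-05). The other carriers did not pass the test. They were SLC2A3 (GLUT3), a high-affinity carrier best known from neurons (log2 difference −0.0088, adjusted p = 0.957), SLC2A6 (−0.12, 0.444) and SLC2A12 (0.10, 0.219). SLC2A12 had a mean signal below 5.28, and that of SLC2A3 lay just above it (5.30). SLC2A3 is also close in sequence to SLC2A14, so its signal could hold both. The log2 ratio of SLC2A3 to SLC2A1 within an array was −3.19, −3.39, −3.03 and −3.50 in suspended cultures, against −3.65, −3.88, −3.68 and −3.82 in attached cultures. The ratio did not overlap between conditions and was 0.48 higher in suspension (exact two-sided permutation test, p = 0.0286, the smallest that 4 against 4 allows, adjusted p = 0.0457 over the 8 pairs of related genes tested). With SLC2A3 at low signal and differing by −0.0088, this shift carries the fall of SLC2A1 and is not a separate result.

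At the hexokinase step HK1 fell. HK1 (probe set 7928019) read 7.11, 7.31, 7.19 and 7.35 in the 4 suspended cultures, against 7.47, 7.57, 7.56 and 7.50 in the 4 attached cultures. The 2 ranges were apart, and HK1, the mitochondria-bound hexokinase of most tissues, was 1.22-fold lower (log2 difference −0.29, SE 0.059, limma adjusted p = 0.00474). HK2 (probe set 8042942) read 8.07, 8.06, 8.13 and 8.02 in the 4 suspended cultures, against 8.31, 8.28, 8.25 and 8.05 in the 4 attached cultures. HK2, the hexokinase known for its induction in tumours, overlapped because attached replicate 4 lay within the suspended range, and it did not pass the test (log2 difference −0.15, SE 0.061, limma adjusted p = 0.11). HK2 did pass without that array (−0.21) and with array medians set equal (−0.20, adjusted p = 0.0376). HK3, of white blood cells, differed by 0.0064 (adjusted p = 0.953). The log2 ratio of HK2 to HK1 was 0.83 ± 0.14 in suspended and 0.70 ± 0.12 in attached cultures (SD, n = 4 each), which did not pass (exact permutation p = 0.200, adjusted p = 0.229), so an unequal change of the 2 hexokinases was not shown.

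The next steps held the largest fall. PFKP (probe set 7925876) read 8.73, 8.69, 8.58 and 8.76 in the 4 suspended cultures, against 9.32, 9.38, 9.39 and 9.27 in the 4 attached cultures. PFKP, the platelet-type subunit of phosphofructokinase 1, was 1.57-fold lower in suspension, with no overlap (log2 difference −0.65, SE 0.054, limma adjusted p = 8.19e-06). GPI (probe set 8027621) read 9.99, 10.08, 10.09 and 10.15 in the 4 suspended cultures, against 10.33, 10.31, 10.40 and 10.30 in the 4 attached cultures. GPI, which turns glucose 6-phosphate into fructose 6-phosphate, was 1.20-fold lower with no overlap (log2 difference −0.26, SE 0.049, limma adjusted p = 0.00309). The muscle-type and liver-type subunits did not pass the test. PFKM (probe set 7955078) read 8.028, 8.016, 7.957 and 7.995 in the 4 suspended cultures, against 7.844, 7.933, 7.937 and 7.929 in the 4 attached cultures. The PFKM values were slightly higher in every suspended culture (log2 difference 0.09, SE 0.045, limma adjusted p = 0.201), with attached replicate 1 lowest, and PFKL differed by 0.12 (adjusted p = 0.192). The log2 ratio of PFKP to PFKM was 0.70, 0.68, 0.62 and 0.77 in suspended cultures, against 1.48, 1.44, 1.45 and 1.34 in attached cultures. The ratio of platelet-type to muscle-type signal fell by 0.73 on the log2 scale in suspension, the largest shift among the 8 pairs of related genes (exact permutation p = 0.0286, adjusted p = 0.0457). Most of this shift is the fall of PFKP itself (−0.65), so it is not a separate result.

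**Figure D2:**
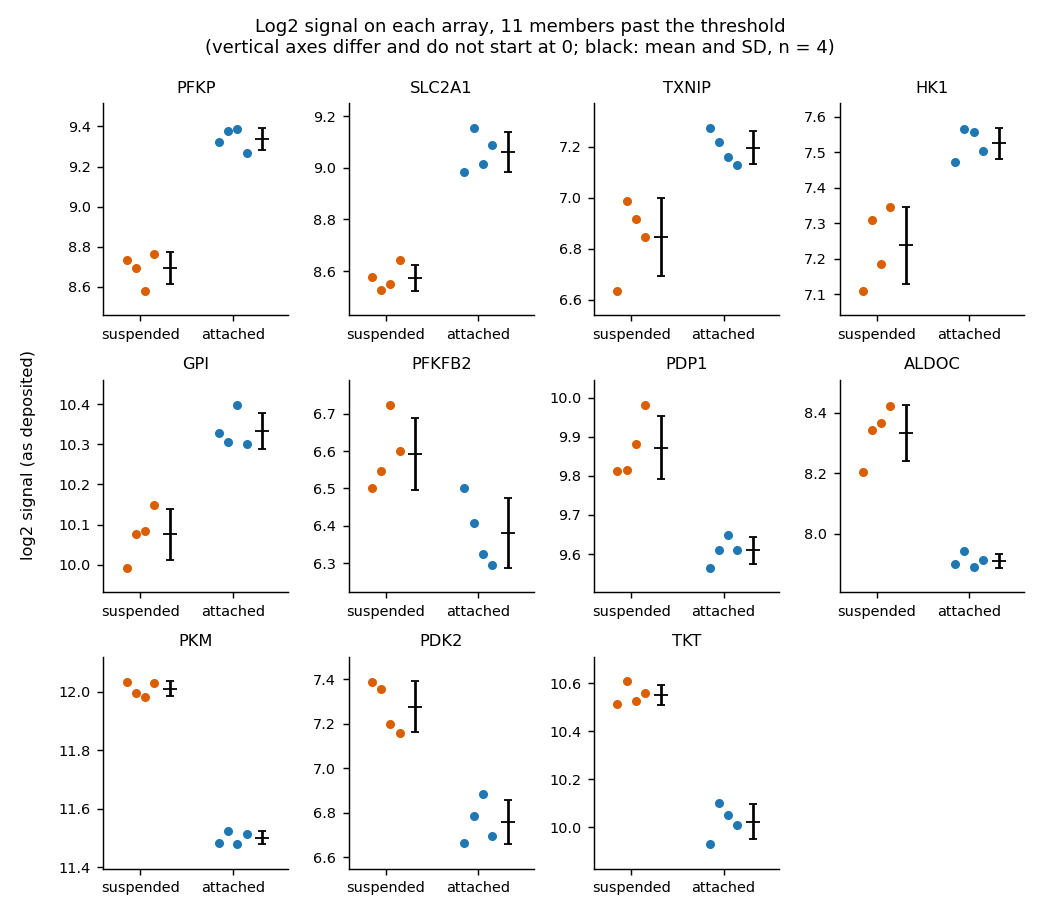
Log2 signal on each of the 4 suspended (orange) and 4 attached (blue) arrays for the 11 called members, ordered from the largest fall (PFKP) to the largest rise (TKT), with mean and SD in black and a separate vertical axis per gene. The groups are apart for all 11 genes shown except PFKFB2, where attached replicate 1 reaches the suspended range.

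The PFKFB enzymes make or break fructose 2,6-bisphosphate, the strongest known activator of phosphofructokinase 1. PFKFB2 (probe set 7909285) read 6.50, 6.55, 6.72 and 6.60 in the 4 suspended cultures, against 6.50, 6.41, 6.32 and 6.29 in the 4 attached cultures. PFKFB2, the heart-type enzyme, was 1.16-fold higher (log2 difference 0.21, SE 0.063, limma adjusted p = 0.0357), with attached replicate 1 level with the lowest suspended culture. PFKFB2 lost its call when array medians were set equal (0.17, adjusted p = 0.0874). The same happened on leaving out any of 5 arrays, namely suspended replicates 3 and 4 and attached replicates 2, 3 and 4 (log2 difference 0.17 to 0.25 over the 8 refits). The other forms were not called. PFKFB3, the inducible form, differed by −0.13 (adjusted p = 0.147), PFKFB4 by 0.11 (0.12) and the liver form PFKFB1, with a mean below 5.28, by −0.13 (0.112). PFKFB4 (probe set 8086961) read 6.04, 5.94, 6.02 and 5.94 in the 4 suspended cultures, against 5.84, 5.90, 5.91 and 5.85 in the 4 attached cultures. Every suspended PFKFB4 value lay above every attached one by a narrow margin. PFKFB3 passed the test without attached replicate 1 (−0.18). The log2 ratio of PFKFB4 to PFKFB3 was −2.45 ± 0.09 in suspended and −2.69 ± 0.07 in attached cultures (SD, n = 4 each), 0.24 higher in suspension with no overlap (exact permutation p = 0.0286, adjusted p = 0.0457).

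From aldolase to pyruvate kinase 2 of 9 measured members rose and 0 fell, a called share of 22.2%, close to the 20.6% of all genes. PKM (probe set 7990151) read 12.03, 11.99, 11.98 and 12.03 in the 4 suspended cultures, against 11.48, 11.52, 11.48 and 11.51 in the 4 attached cultures. PKM, which encodes the M1 and M2 splice forms of pyruvate kinase, not told apart here, rose 1.42-fold, with tight replicates and no overlap (log2 difference 0.51, SE 0.042, limma adjusted p = 8.01e-06). ALDOC (probe set 8013660) read 8.20, 8.34, 8.37 and 8.42 in the 4 suspended cultures, against 7.90, 7.94, 7.89 and 7.91 in the 4 attached cultures. ALDOC, the brain-type aldolase, was 1.34-fold higher and did not overlap (log2 difference 0.42, SE 0.053, limma adjusted p = 1.92e-04). The muscle-type aldolase ALDOA had no call (log2 difference 0.06, SE 0.045, limma adjusted p = 0.404). The log2 ratio of ALDOC to ALDOA was −1.05 ± 0.07 in suspended and −1.42 ± 0.05 in attached cultures (SD, n = 4 each). This ratio was 0.36 higher in suspension (exact permutation p = 0.0286, adjusted p = 0.0457). With ALDOA differing by 0.06, the shift carries the rise of ALDOC and is not a separate result.

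The remaining enzymes of the main chain had small differences on either side of 0. GAPDH, which oxidises glyceraldehyde 3-phosphate, averaged 12.89 ± 0.02 in suspended and 12.82 ± 0.05 in attached cultures (SD, n = 4 each; log2 difference 0.07, limma adjusted p = 0.288). PGK1, the next enzyme and the earlier of the chain's ATP-yielding pair, differed by −0.09 (0.192), the triose isomerase TPI1 by −0.08 (0.28; −0.07 at its other probe set) the main enolase ENO1 by −0.07 (0.329) and the neuronal enolase ENO2 by −0.04 (0.549). Taken with ALDOA, ENO2 and LDHA, 0 of these 7 genes passed, and their 95% intervals lay between −0.19 and 0.17. Several of them have processed copies elsewhere in the genome, to which their probes could also bind. The muscle enolase ENO3, below 5.28 in mean signal, differed by 0.20 (adjusted p = 0.106; 0.26 and called without attached replicate 1), and the log2 ratio of ENO2 to ENO1 differed by 0.030 (exact permutation p = 0.400, adjusted p = 0.400).

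The lactate dehydrogenase subunits were compared singly and as a ratio. LDHA, whose product favours lactate formation, averaged 12.01 ± 0.03 in suspended and 11.97 ± 0.04 in attached cultures (SD, n = 4 each; log2 difference 0.03, limma adjusted p = 0.648). LDHB (probe set 7961693) read 11.06, 11.02, 11.09 and 10.86 in the 4 suspended cultures, against 11.21, 11.14, 11.10 and 11.13 in the 4 attached cultures. LDHB, whose product favours the reverse reaction, did not overlap between conditions yet did not pass the test over all genes (log2 difference −0.14, SE 0.057, limma adjusted p = 0.112), and suspended replicate 4 was its lowest value. The log2 ratio of LDHB to LDHA was −0.94, −0.95, −0.93 and −1.19 in suspended cultures, against −0.73, −0.89, −0.84 and −0.85 in attached cultures. It was −0.17 as a difference, with no overlap (exact permutation p = 0.0286, adjusted p = 0.0457), and −0.11 without suspended replicate 4. Most of this shift lies in LDHB (−0.14), which was not called by itself, with LDHA at 0.03.

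**Figure D3:**
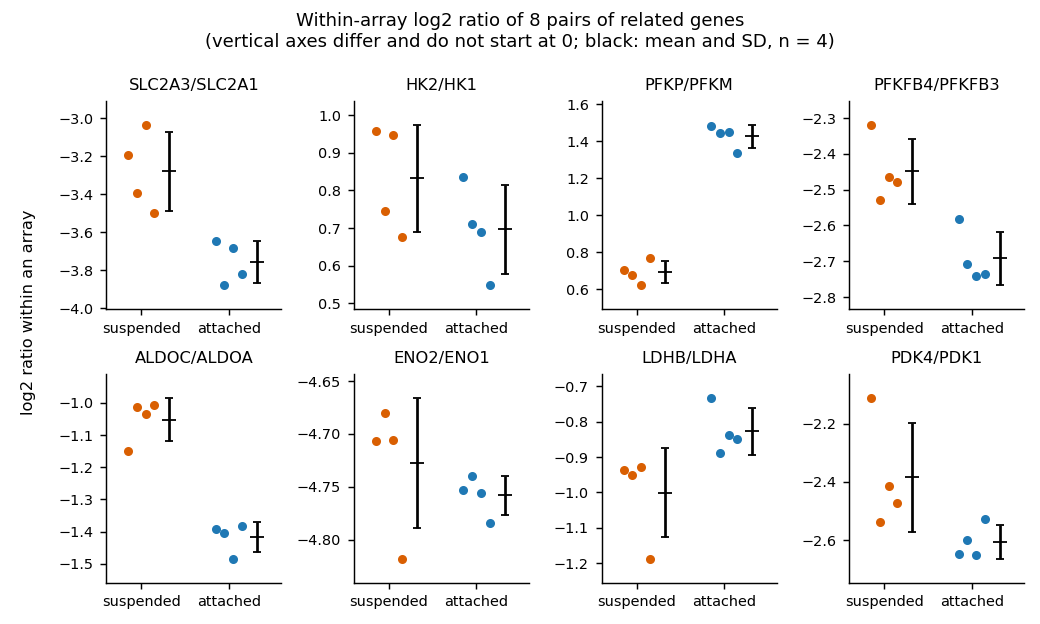
Within-array log2 ratio of 8 pairs of related genes on the 4 suspended (orange, left) and 4 attached (blue, right) arrays, with mean and SD in black. Groups do not overlap for SLC2A3/SLC2A1, PFKP/PFKM, PFKFB4/PFKFB3, ALDOC/ALDOA and LDHB/LDHA (each exact permutation adjusted p = 0.0457). They overlap for HK2/HK1, ENO2/ENO1 and PDK4/PDK1. With 4 arrays a group, passing this test is the same as not overlapping. The share of other gene pairs that do not overlap was not worked out, and 24.8% of single genes did not.

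At the gate between glycolysis and mitochondria, a kinase and a phosphatase with opposed actions both rose. PDK2 (probe set 8008263) read 7.39, 7.36, 7.20 and 7.16 in the 4 suspended cultures, against 6.66, 6.79, 6.89 and 6.70 in the 4 attached cultures. PDK2, which phosphorylates and so inactivates pyruvate dehydrogenase, was 1.43-fold higher (log2 difference 0.52, SE 0.068, limma adjusted p = 2.60e-04). PDP1 (probe set 8147344) read 9.81, 9.81, 9.88 and 9.98 in the 4 suspended cultures, against 9.57, 9.61, 9.65 and 9.61 in the 4 attached cultures. PDP1, the phosphatase that reactivates the complex, was 1.20-fold higher (log2 difference 0.26, SE 0.051, limma adjusted p = 0.00341). In both genes every suspended culture lay above every attached one. The other kinases did not pass. PDK1, the hypoxia-induced form, differed by −0.07 (adjusted p = 0.474), PDK3 by 0.05 (0.45) and PDK4, the form raised by fasting, by 0.15 (0.0859), where suspended replicate 1 was highest at 5.67. PDK4 passed the test without suspended replicate 2 (0.19). The ratio of PDK4 to PDK1 did not pass either (0.22, exact permutation p = 0.0571, adjusted p = 0.0762). The E1 subunit genes PDHA1 (−0.03, 0.701) and PDHB (0.08, 0.337) had no call.

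In the pentose phosphate pathway 1 of 6 measured members rose and 0 fell (16.7% called, against 20.6% of all genes). TKT (probe set 8088106) read 10.51, 10.61, 10.52 and 10.56 in the 4 suspended cultures, against 9.93, 10.10, 10.05 and 10.01 in the 4 attached cultures. TKT, the transketolase that moves carbon between the pathway's sugars and glycolysis, had the largest rise of all members, 1.44-fold (log2 difference 0.53, SE 0.051, limma adjusted p = 2.50e-05), with no overlap between conditions. Its partner transaldolase TALDO1 differed by −0.00048 (adjusted p = 0.995). PGD, the oxidative enzyme that releases CO2, differed by 0.05 (0.448), the ribose isomerase RPIA by −0.09 (0.421) and the epimerase RPE by −0.07 (0.355). PGLS (probe set 8026780) read 6.249, 6.125, 5.840 and 6.533 in the 4 suspended cultures, against 5.962, 5.864, 5.998 and 5.922 in the 4 attached cultures. PGLS, the lactonase, had the widest spread of the members, with suspended replicate 3 its lowest value and suspended replicate 4 its highest, and was not called (log2 difference 0.25, SE 0.114, limma adjusted p = 0.156). Its difference was 0.37 without suspended replicate 3, where it passed the test, and 0.13 without suspended replicate 4, where it did not.

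TXNIP encodes an arrestin-like protein that is known to draw GLUT1 from the cell surface and to bind thioredoxin, and its transcript rises with glucose. TXNIP (probe set 7904726) read 6.64, 6.99, 6.91 and 6.85 in the 4 suspended cultures, against 7.27, 7.22, 7.16 and 7.13 in the 4 attached cultures. TXNIP was 1.27-fold lower in suspension with no overlap (log2 difference −0.35, SE 0.072, limma adjusted p = 0.00517), and suspended replicate 1 was the lowest culture. Without that culture the log2 difference was −0.28, and the call held. Among the 37 members with a listed start, only TXNIP held the carbohydrate response element pattern, at the more upstream of its listed starts. Whether that pattern bears on the fall was not tested.

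Beyond the members, 97 of 110 further sugar metabolism genes were measured, drawn up by role, and 21 of them passed the test (21.6%, against 20.6% of all genes), 12 higher and 9 lower. Glycogen genes held the largest differences, with 4 of 23 higher and 2 lower (26.1% called). PYGB (probe set 8061447) read 10.27, 10.24, 10.21 and 10.26 in the 4 suspended cultures, against 9.44, 9.48, 9.40 and 9.50 in the 4 attached cultures. PYGB, the brain-type glycogen phosphorylase, was 1.73-fold higher (log2 difference 0.79, SE 0.044, limma adjusted p = 3.94e-07). PGM2L1, a glucose 1,6-bisphosphate synthase, rose 1.66-fold (log2 difference 0.73, SE 0.062, limma adjusted p = 9.36e-06), and PHKA2, a regulatory subunit of phosphorylase kinase (0.25), and the phosphoglucomutase PGM1 (0.20) rose less, while the branching enzyme GBE1 (−0.23) and PGM2 (−0.22) fell. The muscle and liver phosphorylases PYGM (0.19, limma adjusted p = 0.0957, mean below 5.28) and PYGL (−0.08, 0.241) were not called. PGM1 lost its call without any of 6 arrays and after median centring (0.15, adjusted p = 0.122). PGM2 lost its call without any of 5 arrays, after quantile normalization (−0.20, adjusted p = 0.0512) and in the fit that blocks on replicate number (−0.22, adjusted p = 0.0580).

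The hexosamine branch, which uses fructose 6-phosphate to make UDP-N-acetylglucosamine for glycosylation, was listed together with mannose genes. Of the 12 measured 2 fell and 2 rose (33.3% called, against 20.6% of all genes). Of these 12, 0 had a mean below 5.28, so the 2 shares do not compare genes of like signal. UAP1 (probe set 7906863) read 10.25, 10.19, 10.21 and 10.07 in the 4 suspended cultures, against 10.73, 10.69, 10.72 and 10.72 in the 4 attached cultures. UAP1, the pyrophosphorylase of its final step, was 1.45-fold lower (log2 difference −0.53, SE 0.050, limma adjusted p = 1.95e-05), and GNPNAT1, an acetyltransferase earlier in the branch, 1.35-fold lower (log2 difference −0.44, SE 0.064, limma adjusted p = 5.55e-04). Neither overlapped between conditions. The entry enzyme GFPT1 differed by −0.0071 (limma adjusted p = 0.929). UAP1L1 (0.24) and the N-acetylglucosamine kinase NAGK (0.21) rose, NAGK with a call lost without any of 4 arrays and in the blocked fit (adjusted p = 0.0583).

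Among 16 other glycolysis and gluconeogenesis genes 2 rose and 3 fell (31.2% called, against 20.6% of all genes). The rises were pyruvate carboxylase PC (0.29) and BPGM, which makes 2,3-bisphosphoglycerate (0.24). The falls were the ADP-dependent glucokinase ADPGK (−0.22), TIGAR, a phosphatase of fructose 2,6-bisphosphate (−0.42), and PGAM5, a mitochondrial phosphatase and not the glycolytic mutase (−0.19). Limma adjusted p ran from 0.00662 to 0.0311 over the 5. PC was no longer called without any of 4 arrays and TIGAR without any of 5. In the pentose phosphate branch H6PD, the enzyme of the endoplasmic reticulum, rose (0.34, limma adjusted p = 0.0112), 1 of 5 measured, and of 12 other hexose carriers SLC2A11 rose (0.32, 0.00205). DLAT, the acetyltransferase subunit of pyruvate dehydrogenase, fell (−0.24, 0.00229), 1 of 5 measured. EMB, a partner protein of monocarboxylate carriers, fell (−0.26, 0.0116), 1 of 11, whereas BSG, the better known partner, differed by 0.06 (0.386). Called shares in these 4 lists were 20%, 8.33%, 20% and 9.09% in the order given, none above that of all genes. Of 5 fructose, galactose and polyol genes 0 were called by limma, with 1, GALT, at an unadjusted p under 0.05 (0.13).

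Around the glucose sensors, 2 of 8 measured genes rose (25% called, against 20.6% of all genes), and 1 of these calls, MLXIPL, was not stable. ARRDC3 (probe set 8113073) read 10.20, 10.30, 10.39 and 10.21 in the 4 suspended cultures, against 9.91, 9.93, 9.87 and 9.90 in the 4 attached cultures. ARRDC3, an arrestin-like relative of TXNIP, was 1.30-fold higher (log2 difference 0.37, SE 0.052, limma adjusted p = 3.81e-04), the opposite direction to TXNIP. ARRDC4, the relative known like TXNIP as a MondoA target, had a mean below 5.28 and differed by −0.10 (adjusted p = 0.369). MLXIPL, which encodes ChREBP, rose by 0.16 (adjusted p = 0.033), a call lost without any of 6 arrays and under 4 of the 7 other settings, median centring among them (0.11, adjusted p = 0.154). MLXIP, which encodes MondoA, differed by −0.21 (0.0986) and thioredoxin TXN by −0.24 (0.0577).

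**Figure D4:**
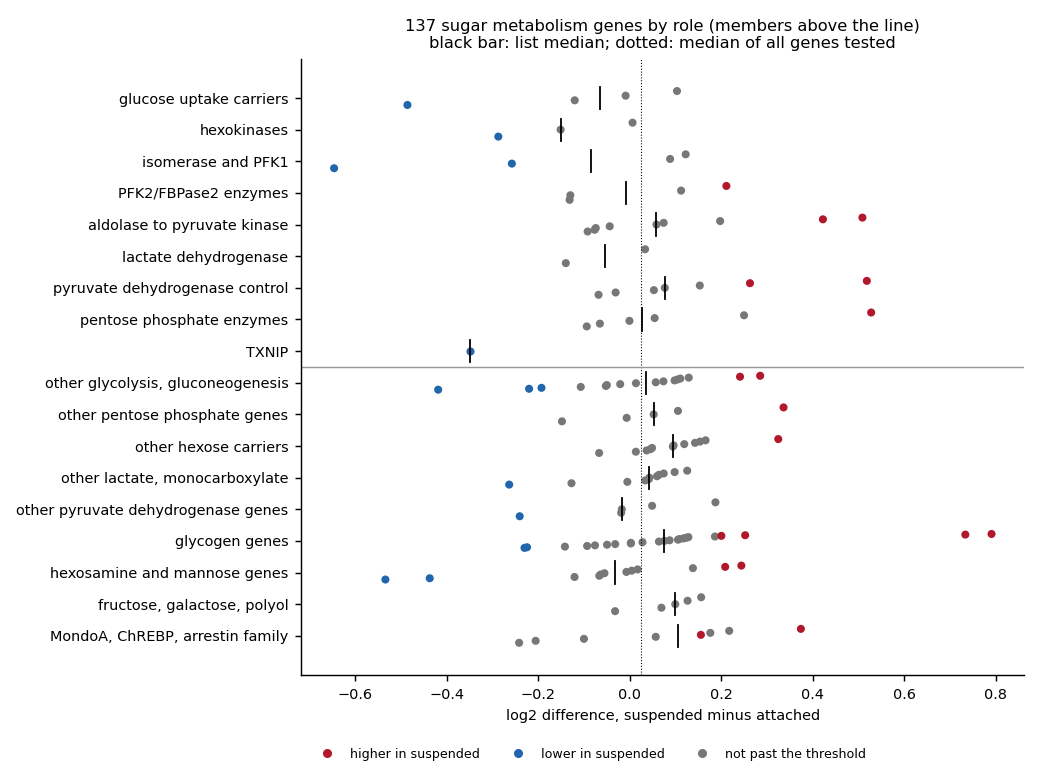
Log2 difference, suspended minus attached, of 137 measured sugar metabolism genes by role, members above the grey line and the 97 further genes below it, with each list's median as a black bar and the median of all genes tested (0.024) dotted. Red and blue points passed limma's adjusted p under 0.05, and the points farthest right are PYGB (0.79) and PGM2L1 (0.73), both in the glycogen list.

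Counts by role did not single out a step by a test, since roles were compared by description alone. Of the 11 members from glucose carriers to phosphofructokinase 1, 4 fell and 0 rose, and of the 9 from aldolase to pyruvate kinase, 2 rose and 0 fell, where 10.4% of all genes rose and 10.2% fell. Counting either direction, 22.2% of the later stretch was called, against 20.6% of all genes. Whether either stretch differs from all genes was not tested, and with so few members neither count is read as setting a stretch apart. Calls among the members were 54.5% rises as deposited (6 of 11) and 41.7% with array medians set equal (5 rises, 7 falls). Over all genes the share of rises was 50.4% as deposited and 35.2% with equal medians, a shift of 0.046 for every gene. Of the 11 called members 10 kept their call in each of the 8 refits without 1 array and under each of 7 other settings, and PFKFB2 did not.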

How the data were processed

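Total RNA of 8 BT549 cultures, 4 suspended and 4 attached, was measured on gene-level arrays, extracted with TRIzol and labelled with biotin per the labels' protocols; the labelling kit named there is a small-RNA kit. The authors deposited 1 table of log2 values, 33297 probe sets by 8 arrays; the log2 scale was inferred from the values (array maxima 13.69 to 13.73). Partek was used, per the submitters' processing notes, and the sources used here state no background correction, normalization or summarisation. Every column was assigned by its sample name, and 0 were left over.

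The platform annotation gave 1 symbol for 19460 probe sets, several for 1754 and none for 12083; 19429 matched RefSeq (GRCh38.p14) by gene ID. For 769 genes with several probe sets the brightest over all 8 arrays was used, leaving 18417 genes. limma 3.58.1 in R 4.3.3 (lmFit, eBayes, no covariate) compared the groups, two-sided, with Benjamini-Hochberg adjustment over all genes and a threshold of 0.05; SE and 95% intervals are its moderated ones. Ratios of related genes were tested by exact permutation over samples (scipy 1.17.1), adjusted over the 8 pairs that could be formed. A planned pair of SLC16A3 and SLC16A1 could not be formed and is not in that count. Every pair that passed had the smallest exact permutation p possible (0.0286). Its adjusted p of 0.0457 thus depends on how many pairs share that p and how many are counted. Had the planned pair been counted too, at a larger p, no pair would have been under 0.05. Members and lists were chosen with earlier results of these data known. All members are named, and of the further lists every called gene. On simulated data with 18417 genes, 53% of 100 genes changed 1.25-fold and 91% of 100 changed 1.5-fold were recovered, with 6 false calls. Far fewer genes were changed there than the 3787 called in the cultures. Benjamini-Hochberg adjustment is stricter where fewer genes differ. The recovered percentages are therefore no measure of how sensitive the test was on the cultures. Alternatives were a replicate block, quantile normalization, median centring, a 25th percentile filter, mean of probe sets, array weights, trended robust moderation and leaving out each array.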

Additional observations from a re-analysis of the deposited data

Results flagged for a closer look

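Single arrays stood apart from the other 3 of their group in 4 of 122 groups examined, by a gap to the nearest array that took up most of the group's range; chance alone marks about 1 group in 20. PFKM in attached replicate 1 was 7.84, against 7.93 to 7.94 in the other attached cultures. ENO1 in attached replicate 2 was 12.76, against 12.68 to 12.69. PDK1 in suspended replicate 1 was 7.79, against 7.96 to 7.99. GBE1, a called fall, was 7.29 in attached replicate 4, against 7.41 to 7.43, which lies nearer to the suspended values. PFKM, ENO1 and PDK1 were not called with or without these arrays.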

How the results depend on the processing

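Members called ranged from 10 to 13 over the 8 refits without 1 array (11 with all), from 5 to 7 among rises and from 5 to 6 among falls. They were 10 with the replicate number as a block, 11 after quantile normalization, with the 25th percentile filter, mean of probe sets or array weights, 12 after median centring (HK2 and PFKFB1 called, PFKFB2 not) and 13 with trended robust moderation (PGK1 and LDHB added). Calls among the further genes ranged from 17 to 23 over these settings (21 as reported), and calls over all genes from 2934 to 4191 (3787 as reported). The direction of uncalled, near-0 members turned in places: SLC2A3 with array weights (0.003489; −0.083 to 0.046 over refits without 1 array), HK3 after quantile normalization (−0.014) and median centring (−0.040; −0.021 to 0.043 over refits), LDHA after median centring (−0.012), PDHA1 after quantile normalization (0.009408) and TALDO1 after quantile normalization (0.028; −0.020 to 0.016 over refits). Same-numbered cultures correlated at 0.042, −0.20, −0.016 and −0.17 in their deviations from the group means. These values gave no sign of pairing by number but cannot show that same-numbered cultures were set up separately. With the block, 3022 genes were called, PFKFB2 was not (limma adjusted p = 0.0930), nor were PGM2, NAGK and MLXIPL. Paralogue ratios kept their direction and side of the threshold after quantile normalization and with mean probe sets; with 3 arrays in a group (smallest exact permutation p = 0.0571) or with sign flips within numbers (0.125) no call is possible, and the refits without 1 array are values only: 0.40 to 0.55 for SLC2A3/SLC2A1, −0.76 to −0.71 for PFKP/PFKM, 0.20 to 0.28 for PFKFB4/PFKFB3, 0.34 to 0.40 for ALDOC/ALDOA and −0.20 to −0.11 for LDHB/LDHA. The deposited table has no background measure, so SLC2A12, PFKFB1 and ENO3, with mean signals below 5.28, carry the least certain values. SLC2A3, with a mean of 5.30, lay just above that level.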
